A study of Solanum lycopersicum with 8 samples.

Results

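LePCL1, GBF12 and CIP1 are 3 tomato genes grouped by their symbols as regulators linked to light and the daily clock. They were chosen by the large differences of their leaf transcripts between 12 h and 6 h after spraying. Members were the probe sets annotated with these symbols. LePCL1 and GBF12 have 1 probe set each and CIP1 has 2, of which the one with the higher mean over the 8 arrays stands for the gene. The 3 genes are 3 of 688 genes that carry a symbol on the array, and their 4 probe sets are 4 of 8404 tested.

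Plants anticipate dawn and dusk with a circadian clock, a loop of transcription factors that repress each other at set hours and pass timing on to light-harvesting, growth and flowering genes. PCL1 of Arabidopsis, also called LUX, is a MYB-like factor of the evening complex, which represses clock and growth genes around dusk. G-box binding factors such as GBF12 are bZIP transcription factors that bind the G-box, a DNA element common in the promoters of light-regulated genes. CIP1 is a symbol used in tomato for a CONSTANS-interacting protein and in Arabidopsis for a protein that binds COP1, and the annotation used here does not spell it out. CONSTANS is the factor that links day length to flowering, and COP1 is the ubiquitin ligase that removes light-promoting factors in darkness.

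The study measured leaf RNA of tomato cultivar Summer sweet on Affymetrix Tomato Genome arrays. Plants grew at 27 °C with 12 h of light per day and were sprayed to run-off with neutralized phosphorous acid (NPA), 1 g of phosphorous acid per litre set to pH 6.3 with potassium hydroxide, or with water alone. The 4 groups were NPA at 12 h, water at 12 h, NPA at 6 h and water at 6 h after spraying, with 2 arrays each, 1 from each of 2 repeats of the experiment, and every array carried RNA pooled from 5 plants. The hour of day of spraying is not given in the sources used here, so time after spraying and hour of day cannot be told apart, and with 2 harvests only the direction and the size of a change can be read.

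All levels are deposited log2 expression values. Arrays of a group correlated between 0.968 and 0.987 across probe sets, and their medians lay between 8.77 and 8.83. Of the leaf markers looked up, 6 were measured, of which 3 were steady over the 8 arrays, such as PSBO of photosystem II at 13.86 to 13.93. The other 3 are chlorophyll a/b-binding genes that varied with the harvest, CAB5 at 8.05 to 13.82, CAB4 at 11.03 to 13.91 and CAB6A at 11.98 to 14.17. TIP, looked up as a root marker, stood at 8.17 to 9.95, and TDR6, looked up as a flower marker, at 6.16 to 9.11. The median of TIP, 8.55, was close to the array medians, so these values do not tell whether other tissue was present. No detection calls were used, so no transcript could be called absent. A difference in a leaf sample does not tell fewer cells of a type from less RNA per cell.

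LePCL1 was higher at 12 h than at 6 h in both treatments. In NPA leaves its log2 level was 8.66 and 8.95 at 12 h in repeats 1 and 2, against 6.47 and 7.28 at 6 h. In water leaves it was 9.15 and 9.14 at 12 h, against 6.44 and 7.60 at 6 h. All 4 arrays of 12 h stood above all 4 of 6 h, and the lowest levels were those of repeat 1 at 6 h under either spray. The mean difference was 1.93 on the log2 scale in NPA leaves, a 3.81-fold higher level at 12 h, and 2.125 in water leaves, 4.36-fold (limma standard error, SE, 0.41 in each, n = 2 arrays per group). Among the 688 named genes LePCL1 ranked 9 by size of rise in NPA leaves and 3 in water leaves. In repeat 1 at 6 h only 10.7% (NPA) and 11.42% (water) of the probe sets on the same array were below it. In repeat 2 these shares were 21.68% and 26.33%. Whether the probe set was above background at 6 h was not tested, and if it was not, the folds are lower bounds.

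GBF12 was likewise higher at 12 h. Its level was 10.26 and 10.73 in NPA leaves at 12 h, against 8.10 and 8.40 at 6 h. In water leaves it was 10.48 and 10.62 at 12 h, against 8.16 and 8.85 at 6 h. The 12 h arrays again stood apart from the 6 h arrays, by more than 1 log2 unit between the nearest pair. The mean difference was 2.245 in NPA leaves, 4.74-fold, and 2.045 in water leaves, 4.13-fold (SE 0.27 in each). GBF12 ranked 4 among named genes by size of rise under both sprays.

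CIP1 went the other way, ranking 1 among the named genes by size of drop under both sprays, close to CAB5 in NPA leaves at -5.325. Its level was 5.92 and 5.94 in NPA leaves at 12 h, against 11.55 and 11.11 at 6 h. In water leaves it was 5.86 and 6.29 at 12 h, against 11.73 and 10.98 at 6 h. The mean difference was -5.40 in NPA leaves, 42.2-fold lower at 12 h as the values stand, and -5.28 in water leaves, 38.9-fold lower (SE 0.29 in each). Only 4 of the 8404 probe sets had a larger drop than CIP1 under either spray. At 12 h its values were near the low end of the scale, with 6.62% to 10.97% of the probe sets on the same array below them. Whether the probe set was above background there was not tested, and if it was not, the folds are lower bounds. At 6 h 85.55% to 91.69% of probe sets were below CIP1.

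The second CIP1 probe set showed the same direction. It stood at 3.84 and 3.62 in NPA leaves at 12 h, against 8.88 and 8.18 at 6 h, and at 3.65 and 4.24 in water leaves at 12 h, against 9.20 and 8.23 at 6 h. The difference was -4.80 in NPA leaves and -4.77 in water leaves (SE 0.39 in each), or 27.9-fold and 27.3-fold as the values stand. These 12 h values were close to the bottom of the arrays, with 0.15% to 0.76% of probe sets below them, so the folds may be lower bounds. In the plot of levels by array both CIP1 probe sets lie lower at 12 h, where LePCL1 and GBF12 lie higher.

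**Figure D1:**
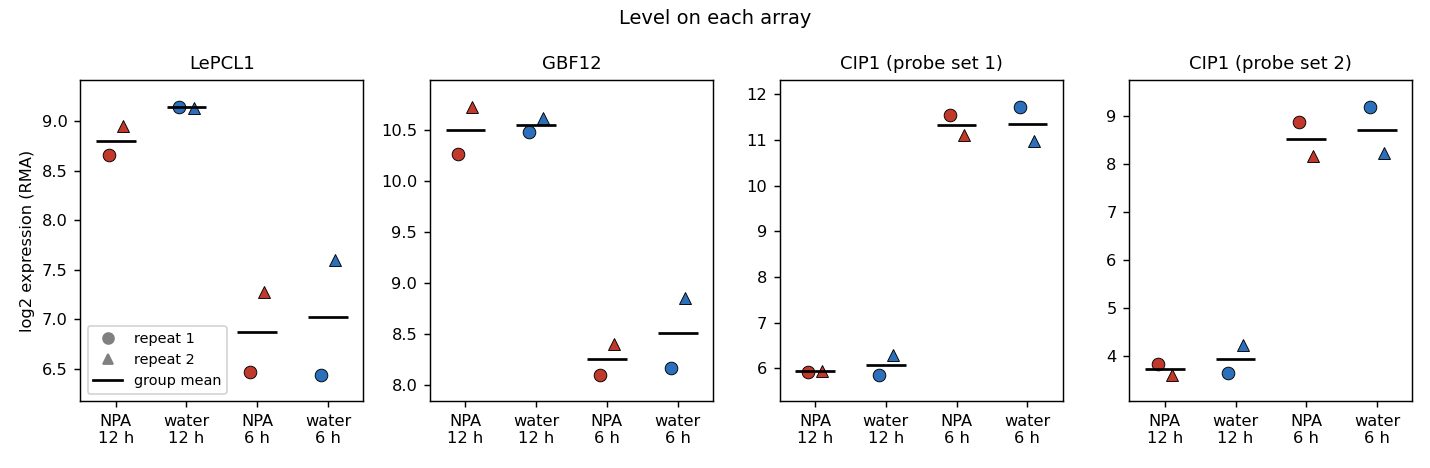
Log2 expression level of LePCL1, GBF12 and the 2 CIP1 probe sets on each of the 8 arrays (circles repeat 1, triangles repeat 2, red NPA, blue water, bars group means of 2 arrays), with 12 h groups left of 6 h groups. LePCL1 and GBF12 are higher and CIP1 is lower at 12 h under both sprays, for example CIP1 at 5.92 and 5.94 in NPA leaves at 12 h and 11.55 and 11.11 at 6 h.

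These differences between the harvests are the values that chose the genes, so they are given as a description with no test. Changes with time were common in the data, but few were large. With the 3 genes included, 31 of 8404 probe sets rose and 124 fell by a mean of at least 2 log2 units. Of all probe sets 26.0% passed an adjusted p under 0.05 in limma for 12 h against 6 h in NPA leaves (2183, and 3401 with the repeat as a block), 14.2% higher and 11.8% lower at 12 h. In water leaves 22.2% passed (1867, and 3144 with the block), 11.7% higher and 10.5% lower. The ranks above place the 3 genes near the ends of this distribution because they were picked there.

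The question put to these genes was whether NPA altered the direction or the size of their change. The direction was the same in each of the 4 pairs of arrays, 2 repeats under each spray. For LePCL1 the difference of 12 h over 6 h was 2.19 and 1.67 in NPA leaves and 2.71 and 1.54 in water leaves, repeat 1 first in each pair. For GBF12 it was 2.16 and 2.33 in NPA leaves and 2.32 and 1.77 in water leaves. For CIP1 it was -5.63 and -5.17 in NPA leaves and -5.87 and -4.69 in water leaves. The NPA values lay inside the span of the water values for LePCL1 and CIP1, and for GBF12 the larger NPA value exceeded the larger water value by a hundredth of a log2 unit.

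The change in NPA leaves minus that in water leaves was -0.195 for LePCL1 (SE 0.58, 95% interval -1.59 to 1.20), 0.20 for GBF12 (SE 0.38, -0.71 to 1.11) and -0.12 for CIP1 (SE 0.41, -1.09 to 0.85). Adjusted p in limma was 0.925 for LePCL1, 0.878 for GBF12 and 0.933 for CIP1. As a ratio of fold changes the intervals reach from 0.332 to 2.3 for LePCL1, from 0.612 to 2.16 for GBF12 and from 0.469 to 1.81 for CIP1. With the repeat as a block the 95% interval of the log2 difference was -1.18 to 0.79 for LePCL1. It was -0.32 to 0.72 for GBF12 and -1.09 to 0.85 for CIP1. The smallest change in size detectable with 2 arrays per group was not tested. In limma 0.0% of probe sets passed for this contrast, and 1123 had an unadjusted p under 0.05. It reuses the arrays by which the genes were chosen.

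**Figure D2:**
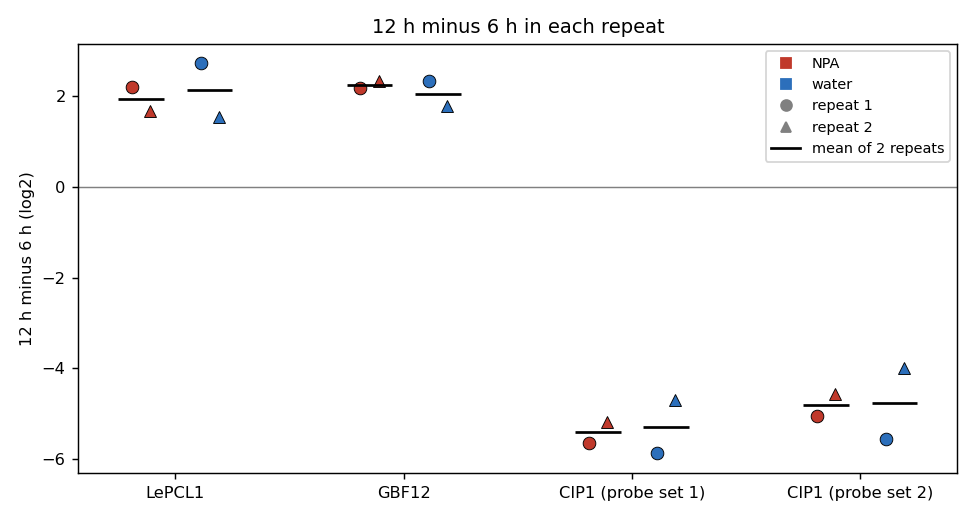
Difference of 12 h minus 6 h in log2 expression in each repeat (circles repeat 1, triangles repeat 2) for NPA leaves (red, left) and water leaves (blue, right), with bars at the mean of 2 repeats. In water leaves repeat 2 has the smaller change for all 3 genes, such as 1.54 against 2.71 in repeat 1 for LePCL1, and in NPA leaves the 3 genes change in the same directions.

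The NPA effect averaged over both harvests does not depend on the difference between harvests by which the genes were chosen. The genes and tests were, however, chosen with earlier results of these data known. It was -0.24 for LePCL1 (SE 0.29, 95% interval -0.94 to 0.46, limma adjusted p = 0.793). For GBF12 it was -0.155 (SE 0.19, -0.61 to 0.30, adjusted p = 0.797), and for CIP1 -0.085 (SE 0.20, -0.57 to 0.40, adjusted p = 0.895). In levels, NPA over water lies between 0.521-fold and 1.37-fold for LePCL1, between 0.655-fold and 1.23-fold for GBF12 and between 0.673-fold and 1.32-fold for CIP1. With the repeat as a block the 95% interval of the log2 effect was -0.73 to 0.25 for LePCL1. It was -0.41 to 0.10 for GBF12 and -0.57 to 0.40 for CIP1. None of the 3 genes passed, against a background of 0.0714% of probe sets (6, all higher under NPA, and 80 in either direction with the block). Without the block 989 had an unadjusted p under 0.05.

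At 12 h the difference of NPA minus water was -0.34 for LePCL1, with -0.49 and -0.19 in the repeats (95% interval -1.33 to 0.65, limma adjusted p = 0.82). Its NPA arrays, 8.66 and 8.95, both stood below the water arrays, 9.15 and 9.14. Groups without overlap, in either direction, were found for 38.1% of all probe sets at 12 h. GBF12 differed by -0.055, with -0.22 and 0.11 in the repeats (-0.70 to 0.59, adjusted p = 0.962), and CIP1 by -0.145, with 0.06 and -0.35 (-0.83 to 0.54, adjusted p = 0.889). In these 2 genes the NPA and water arrays overlapped. With the block the 95% intervals at 12 h were -1.03 to 0.35 for LePCL1, -0.42 to 0.31 for GBF12 and -0.83 to 0.54 for CIP1. The fit called 0.0119% of probe sets at 12 h, 1 without the block and 0 with it.

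At 6 h the NPA and water arrays overlapped for all 3 genes, while 46.8% of all probe sets had no overlap. The difference was -0.145 for LePCL1, with 0.03 and -0.32 in the repeats (95% interval -1.13 to 0.84, limma adjusted p = 0.912). It was -0.255 for GBF12, with -0.06 and -0.45 (-0.90 to 0.39, adjusted p = 0.725), and -0.025 for CIP1, with -0.18 and 0.13 (-0.71 to 0.66, adjusted p = 0.978). With the block the 95% intervals at 6 h were -0.84 to 0.55 for LePCL1, -0.62 to 0.11 for GBF12 and -0.71 to 0.66 for CIP1. The fit called 0.167% of probe sets at 6 h, 14 without the block and 108 with it. The comparisons at a single time share their arrays with the differences that chose the genes.

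**Figure D3:**
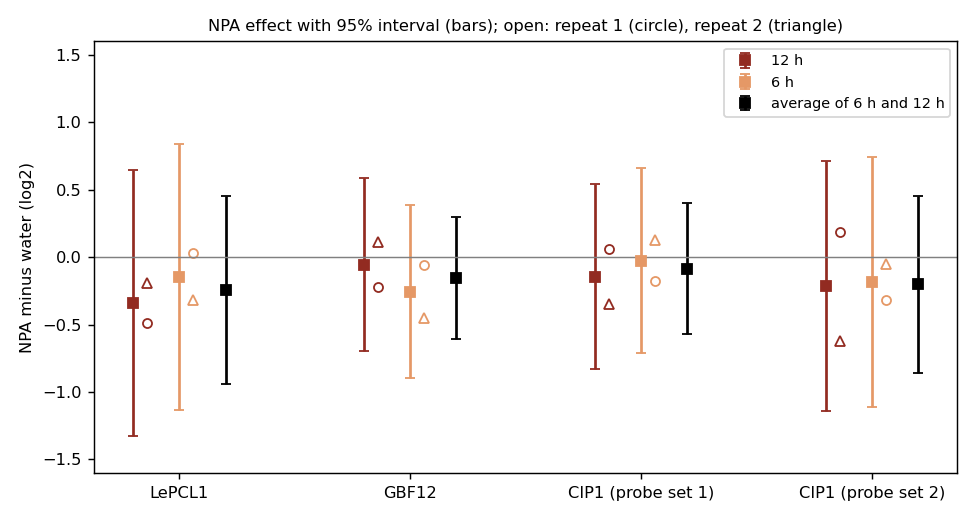
NPA minus water in log2 expression at 12 h, at 6 h and averaged over both (squares with 95% intervals from limma), with the value in each repeat beside it (open circles repeat 1, open triangles repeat 2). Every interval includes 0, and the averaged effects lie at -0.24 for LePCL1, -0.155 for GBF12 and -0.085 for CIP1.

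At 6 h the mean difference between the repeats was larger in size than that between the sprays for each gene. In repeat 2 all 3 genes stood closer at 6 h to the mean 12 h level of the same spray than in repeat 1. Against the 12 h array of the same repeat this did not hold for GBF12 in NPA leaves. The difference there was 2.33 in repeat 2 and 2.16 in repeat 1, and repeat 2 was also higher at 12 h, by 0.47. LePCL1 was higher in repeat 2 than in repeat 1 at 6 h by 0.81 in NPA leaves and by 1.16 in water leaves. Taking the way between the level of repeat 1 at 6 h and the mean of the 12 h arrays under the same spray as the whole, repeat 2 at 6 h stood 34.7% along it in NPA leaves and 42.9% in water leaves. These LePCL1 shares start from low levels for which background was not tested. GBF12 was higher in repeat 2 by 0.30 and 0.69, which is 12.5% and 28.9% of the way in NPA and water leaves. CIP1 was lower, with differences of -0.44 and -0.75, or 7.83% and 13.3% of the way, and its second probe set had -0.70 and -0.97.

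A fit with terms for repeat and NPA at each time, added after these values were seen, gave repeat 2 minus repeat 1 at 6 h as 0.985 for LePCL1 (SE 0.14, limma adjusted p = 0.0976). It gave 0.495 for GBF12 (SE 0.15, adjusted p = 0.198) and -0.595 for CIP1 (SE 0.15, adjusted p = 0.169). None passed among all probe sets, where 0.0238% were called (2, with 1628 at an unadjusted p under 0.05). At 12 h the same difference was 0.14 for LePCL1 (adjusted p = 0.544), 0.305 for GBF12 (0.25) and 0.225 for CIP1 (0.368), where 1.96% of probe sets were called. For CIP1 the sign at 12 h was opposite to that at 6 h.

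Other strongly changing probe sets leaned the same way at 6 h. Apart from those of the 3 genes, 122 probe sets had a mean level at least 2 log2 units lower at 12 h. Of these, 61.5% were lower in repeat 2 than in repeat 1 at 6 h under both sprays, and 14.8% were higher under both. Of 29 others that were at least 2 units higher at 12 h, 72.4% were higher in repeat 2 at 6 h under both sprays and 17.2% lower. Over all 8404 probe sets 39.8% were shifted towards their 12 h level and 26.1% away from it. At 12 h 35.2% of the 122 were further along and 37.7% less far along in repeat 2. For the 29 these shares were 65.5% and 17.2%, and over all 8404 probe sets 39.4% and 31.8%. The 29 thus leaned the same way at both harvests. Whether the repeats were sprayed or harvested at another hour is not given in the sources used here, and its part in these differences was not tested.

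**Figure D4:**
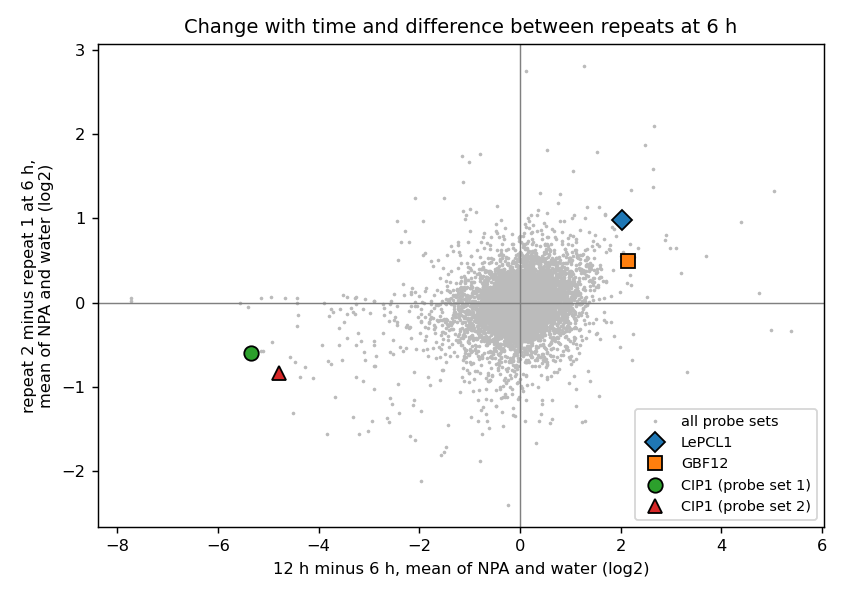
Mean difference of 12 h minus 6 h over both sprays (x axis, log2) against repeat 2 minus repeat 1 at 6 h averaged over both sprays (y axis, log2), for all 8404 probe sets (grey) and the members (coloured). LePCL1 and GBF12 lie at the upper right and both CIP1 probe sets at the lower left, so that repeat 2 at 6 h was on the side of the 12 h level in each.

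LePCL1 and GBF12 had similar values across the arrays once centred. Likeness was measured as the root mean square difference between 2 genes' levels over the 8 arrays, each gene first centred on its own mean. It was 0.22 log2 units for this pair. The measure holds the difference between harvests by which both genes were chosen, so their closeness is a description and follows in part from that choice. No other of the 687 named genes was closer to either, and the medians over them were 1.14 for LePCL1 and 1.15 for GBF12. Next to LePCL1 came LOC543605 at 0.416, tft10, a 14-3-3 protein, at 0.422 and WRKY2, a WRKY transcription factor, at 0.423. Next to GBF12 came eIF-5A1, a translation factor, at 0.344, COP1 at 0.386 and tft10 at 0.41. The 8 arrays share 2 harvests and 2 repeats, so the measure takes in the change with time and the differences between repeats together.

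CIP1 was most like CAB5, a chlorophyll a/b-binding protein of the light-harvesting antenna, at 0.436, and ZEP, the zeaxanthin epoxidase of the carotenoid pathway, at 0.455, followed at a distance by fsm1 at 0.97 and Dea1 at 1.42. The same limit holds here, since CIP1 was chosen by its drop and its nearest genes are others with large drops, of -5.325 and -4.55 for CAB5 and -4.28 and -4.855 for ZEP in NPA and water leaves. CAB5 stood at 8.05 and 8.72 in NPA leaves and 8.94 and 9.55 in water leaves at 12 h, against 13.67 and 13.75 in NPA leaves and 13.77 and 13.82 in water leaves at 6 h. ZEP stood at 6.97 and 7.11 in NPA leaves and 6.99 and 6.80 in water leaves at 12 h, against 11.62 and 11.02 in NPA leaves and 12.09 and 11.41 in water leaves at 6 h. At 6 h ZEP, like CIP1, was lower in repeat 2 under both sprays, by differences of -0.60 and -0.68, whereas CAB5 differed there by 0.08 and 0.05. At 12 h CAB5 was higher in repeat 2, by 0.67 in NPA leaves and 0.61 in water leaves, while ZEP differed by 0.14 and -0.19.

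Other genes of light signalling, of the clock, of CONSTANS and its partners, of the bZIP family and of chlorophyll binding were looked up by symbol. Apart from LePCL1 no clock gene of the list was matched to a symbol. The other 4 lists held 20 genes beside GBF12 and CIP1. None of the 20 passed in limma for NPA against water at 12 h, at 6 h, averaged or for the difference between times. At an unadjusted p under 0.05 there were 2 of them at 12 h, 2 at 6 h, 3 averaged and 3 for the difference, beside 9.65%, 15.7%, 11.8% and 13.4% of all probe sets in these contrasts. Between harvests, 5 of the 20 rose and 4 fell in NPA leaves, where 14.2% of all probe sets rose and 11.8% fell. In water leaves 3 rose and 4 fell, where 11.7% of all rose and 10.5% fell. Their median change was -0.03 in NPA leaves and -0.05 in water leaves. Over all named genes the medians were -0.0175 and -0.0275, and over all probe sets 0.02 in each.

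Among 8 photoreceptor and light signalling genes, 3 rose in NPA leaves and 2 in water leaves, and none fell, beside 14.2% of all probe sets that rose in NPA leaves and 11.7% in water leaves. Counts this small are not read as a property of the list. COP1 had levels of 9.48 and 10.44 in NPA leaves and 9.55 and 9.72 in water leaves at 12 h, against 8.18 and 8.27 in NPA leaves and 8.16 and 8.66 in water leaves at 6 h. It rose by 1.735 in NPA leaves (SE 0.32, adjusted p = 0.0121) and by 1.225 in water leaves (adjusted p = 0.0387). Cry1b, a cryptochrome blue-light receptor, rose by 0.58 (adjusted p = 0.0227) and 0.595 (adjusted p = 0.0238) in NPA and water leaves. CRY2, another cryptochrome, rose by 0.465 in NPA leaves (adjusted p = 0.0336) and stood at 0.04 in water leaves, and the difference between these was not past the threshold (adjusted p = 0.362). With the block DET1, a repressor of light responses named after its value was seen, also passed in NPA leaves (0.375, adjusted p = 0.0313), as did PHYA, the phytochrome A photoreceptor, in water leaves (-0.55, adjusted p = 0.0295). CRY1A, a cryptochrome, stood at -0.51 in NPA leaves and -0.07 in water leaves, and DDB1, a partner of DET1, at -0.245 and -0.25.

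The list of CONSTANS and its interacting proteins took in CIP1 by its symbol alone. Of its 5 other genes, 1 rose and 1 fell under each spray. CO1, a CONSTANS homologue, fell, with changes of -0.79 in NPA leaves (adjusted p = 0.0437) and -1.03 in water leaves (adjusted p = 0.0225). CIP4 rose in NPA leaves (0.47, adjusted p = 0.0302) and stood at 0.325 in water leaves, with adjusted p = 0.771 for the difference. CIP2b rose in water leaves (0.585, adjusted p = 0.0231) and stood at -0.035 in NPA leaves, with adjusted p = 0.254 for the difference. CIP2a stood at 0.21 and 0.20, and FKBP12, which RefSeq also lists as CIP3, at -0.045 and -0.185. Beside the drop of CIP1 by more than 5 log2 units, the changes of these 5 genes lay between -1.03 and 0.585.

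Of 5 bZIP genes beside GBF12, AREB1, a factor of abscisic acid responses, rose in NPA leaves (0.955, adjusted p = 0.0414) and stood at 0.67 in water leaves, with adjusted p = 0.805 for the difference. None passed in water leaves, and the other bZIP genes, GBF4, HY5, bZIP1 and vsf-1, did not pass in NPA leaves either. GBF4, the other G-box binding factor with a symbol, stood at 0.32 and 0.26, against 2.245 and 2.045 for GBF12. The 3 chlorophyll a/b-binding genes all fell under both sprays, CAB5 with changes of -5.325 in NPA leaves (adjusted p = 0.000258) and -4.55 in water leaves (0.000463), CAB4 with -2.545 and -2.32, and CAB6A with -1.945 and -1.85. These genes are known for a daily rhythm in leaves with high levels in daylight.

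The calls of the chlorophyll genes were made in each of 8 fits that left out 1 array, and each of the other calls was lost in at least 2 of them. In NPA leaves CRY2 and CIP4 lost the call without any 1 of the 8 arrays (adjusted p 0.0557 to 0.147 and 0.0505 to 0.129), CO1 without any but the second NPA 6 h array (0.0513 to 0.185), and AREB1 without any but the second NPA 6 h and the first NPA 12 h array (0.0568 to 0.171). Cry1b lost it there without the first NPA 6 h array or either NPA 12 h array (0.053 to 0.109), and COP1 without either NPA 6 h array (0.0524 to 0.0615). In water leaves Cry1b (0.0586 to 0.121), CO1 (0.0511 to 0.126) and CIP2b (0.0664 to 0.121) lost it without any 1 of the 4 water arrays, and COP1 without any of these or either NPA 6 h array (0.0637 to 0.192).

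**Figure D5:**
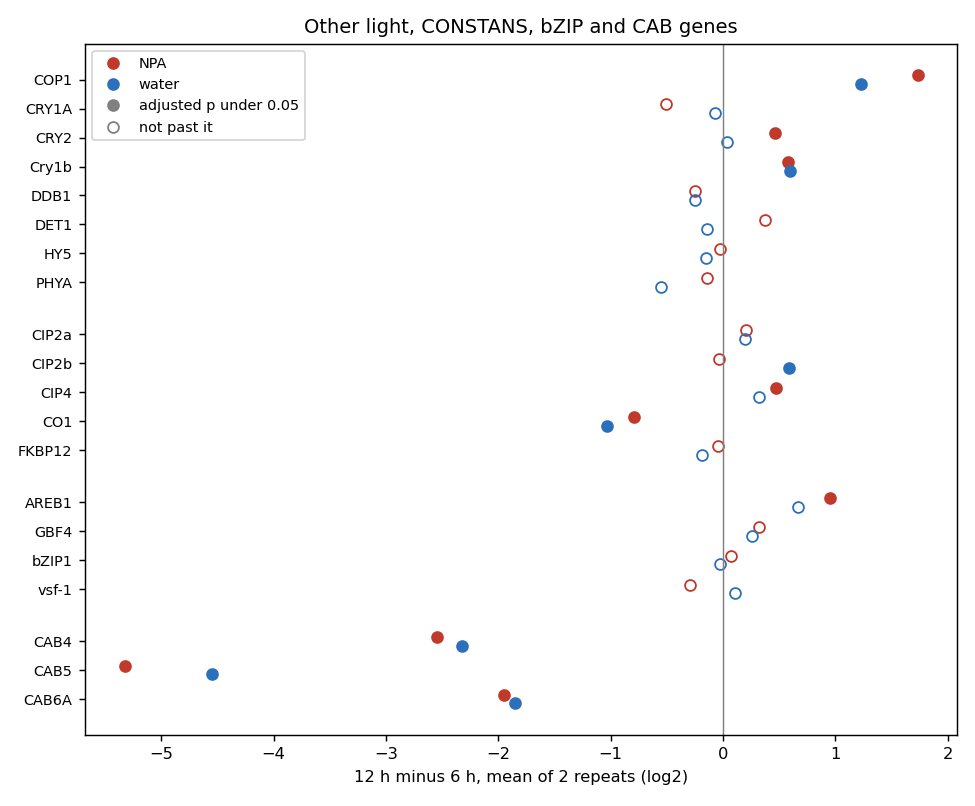
Mean difference of 12 h minus 6 h in log2 expression (x axis) for the 20 other listed genes in NPA leaves (red) and water leaves (blue), filled where the limma adjusted p was under 0.05. COP1 is furthest to the right at 1.735 and 1.225, and the 3 chlorophyll a/b-binding genes are furthest to the left, with CAB5 at -5.325 and -4.55.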

How the data were processed

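The authors deposited 1 log2 expression value per probe set and array, made with RMA per the submitters' processing notes, with no version or settings stated there. The log2 scale was read from the value range. Of 8488 probe sets 84 controls (AFFX and reporter probe sets) were left out. Platform annotation gave 753 of the other 8404 a single gene symbol, for 688 genes, and 7651 none. For 739 probe sets the gene identifier matched RefSeq's gene list for SLM_r2.1, used for names and synonyms only. The platform's identifier for LePCL1 was not matched there. RefSeq has LePCL1 as a synonym of PCL1 under another identifier, so the name of this probe set rests on the platform annotation. The list holds no descriptions, so genes of the lists were matched by symbol or synonym alone.

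Group means over all 8 arrays were fitted in limma 3.58.1 (R 4.3.3) with lmFit and eBayes (4 residual and 2.55 prior degrees of freedom) and Benjamini-Hochberg adjustment over all 8404 probe sets, at a threshold of 0.05. The code was tested on simulated data. The repeats were separate runs of the experiment per the series design text, and every p-value of this fit rests on the spread of 2 pools a group. The fit of repeat 2 minus repeat 1 had 2 residual and 2.83 prior degrees of freedom. Its spread is how far the NPA difference varied between the repeats. Deviations from group means correlated between arrays of the same repeat, at 0.316 to 0.596 over 6 pairs of groups. Blocked fits are therefore quoted wherever calls changed or counts moved more than 1.5 times.

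The members, lists and tests were chosen with earlier results of these data known. For each of the 3 genes the 4 most alike named genes are given, from each list the genes past the threshold and up to 6 with the largest mean change between harvests. The exceptions are HY5, bZIP1 and vsf-1 of the bZIP list, whose changes between harvests are not given. The number of arrays limits the precision. Alternatives were the block, another normalization or scaling, a filter on dim probe sets, other variance priors, array weights, fewer arrays, the other CIP1 probe set and every probe set of a listed gene. Figures were drawn with matplotlib 3.10.9.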

Additional observations from a re-analysis of the deposited data

Results flagged for a closer look

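In 4 of 22 genes looked at the NPA effect had one sign in both repeats at 12 h and the other sign in both repeats at 6 h, and in none of them did the limma test of the difference pass. CIP2b had -0.37 and -0.26 at 12 h and 0.26 and 0.35 at 6 h, a difference of -0.62 (adjusted p = 0.254). CRY2 had 0.13 in each repeat at 12 h and -0.30 and -0.29 at 6 h, a difference of 0.425 (adjusted p = 0.362). PHYA had 0.04 and 0.24 at 12 h and -0.34 and -0.19 at 6 h, a difference of 0.405 (adjusted p = 0.543). The bZIP gene vsf-1 had -0.04 and -0.21 at 12 h and 0.25 and 0.30 at 6 h, a difference of -0.40 (adjusted p = 0.45). The same pattern of signs was found in 23.9% of all 8404 probe sets. LePCL1, GBF12 and CIP1 did not show this pattern.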

How the results depend on the processing

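The direction of the change between harvests was the same under all 94 alternative values computed for LePCL1, GBF12 and CIP1, and none of their 182 alternative values for NPA against water passed the threshold (adjusted p 0.348 to 0.998). The genes were chosen by the change between harvests, and all 12 h arrays stood apart from all 6 h arrays in each gene. Leaving out 1 array could therefore not reverse its direction. The block and the other variance priors leave the estimate of the change as it is, so they could not reverse it either. The 94 values thus do not test the direction. The second CIP1 probe set gave -4.80 in NPA leaves. Leaving out 1 array at a time moved the change in NPA leaves to between 1.525 and 2.335 for LePCL1, 2.01 and 2.48 for GBF12 and -5.62 and -5.18 for CIP1. In water leaves the ranges were 1.545 to 2.705, 1.70 to 2.39 and -5.655 to -4.905 in the same order of genes. Of the 182 values 20 had the opposite sign, all from leaving out 1 array. For LePCL1 the NPA effect then ran between -0.725 and 0.435 at 6 h, between -0.5325 and 0.0475 averaged, and its difference between times between -0.775 and 0.385. For GBF12 it ran between -0.29 and 0.18 at 12 h, between -0.60 and 0.09 at 6 h, between -0.3275 and 0.0175 averaged, and the difference between -0.145 and 0.545. For CIP1 it ran between -0.36 and 0.07 at 12 h, between -0.40 and 0.35 at 6 h, between -0.2725 and 0.1025 averaged, and the difference between -0.495 and 0.255. With the replicate block the averaged effects had adjusted p = 0.519 for LePCL1, 0.439 for GBF12 and 0.829 for CIP1.

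Counts over all probe sets moved more, and the cause was not tested. For NPA against water at 12 h the 1 call became 0 with the replicate block, after a filter at the median level, with array weights and with only the arrays compared, 2 with an intensity trend, and 0 to 3 without 1 array. At 6 h the 14 became 108 with the block, 5 above the median level, 9 with the trend, 2 with only the arrays compared, and 0 to 22 without 1 array. The 6 averaged calls became 80 with the block and 0 to 49 without 1 array. For the difference between times 0 became 2 after quantile normalization, 1 above the median level, 1 with the trend, and 0 to 1 without 1 array. For 12 h against 6 h in NPA leaves 2183 became 3401 with the block, 1281 above the median level, 1058 with only the arrays compared, and 925 to 1892 without 1 array. In water leaves 1867 became 3144 with the block, 1157 above the median level, and 356 to 1740 without 1 array. The calls between repeats ran from 0 to 564 at 12 h and from 2 to 73 at 6 h, and LePCL1, GBF12 and CIP1 passed in none of the fits that held them. The filter at the median level removed LePCL1 and CIP1. Among the 3 genes and the lists the block changed no call other than those of DET1 and PHYA. In NPA leaves AREB1 lost its call after quantile normalization (adjusted p = 0.0521), and CO1 lost it after that (0.0854), with the trend (0.0947) and with array weights (0.0622). With only the arrays compared AREB1 (0.11), CIP4 (0.0958), CO1 (0.0821), CRY2 (0.104) and Cry1b (0.0815) lost theirs, and AREB1 passed in water leaves (0.0486).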
